A study of Mus musculus with 18 samples.

Results

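Tfrc, Trf and Hmox1 are 3 genes of iron and heme supply, and their RNA was compared between male and female mouse hearts under chronic hypoxia. They were taken by gene symbol: every array spot annotated to Tfrc, Trf or Hmox1 as its only gene was used. These were 7 of the 28704 spots, 4 for Tfrc, 1 for Trf and 2 for Hmox1, and 3 of the 10225 named genes on the array. Each of the 18 two-colour cDNA arrays carried male heart cDNA in the dye Cy5 and female heart cDNA in the dye Cy3, both hearts from the same condition and duration. The conditions were chronic constant hypoxia (CCH), chronic intermittent hypoxia (CIH) and control, each at 1, 2 and 4 weeks with 2 arrays per group, so 6 arrays per condition. The labels used here give no strain, age or oxygen level.

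Transferrin, the product of Trf, carries ferric iron in plasma and is secreted mainly by the liver. Transferrin receptor 1, the product of Tfrc, binds iron-loaded transferrin at the cell surface and brings it into the cell, and iron regulatory proteins stabilise its mRNA when iron is scarce. Heme oxygenase 1, the product of Hmox1, breaks heme down into biliverdin, carbon monoxide and ferrous iron, and heme or oxidative stress induces it through the factors BACH1 and NRF2. All 3 genes are known targets of hypoxia-inducible factors (HIF), and the heart needs iron for heme proteins and iron-sulfur clusters.

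RefSeq (GRCm38.p6) gives Tfrc 2 transcript starts on the plus strand. The stretch of 250 bases before the first of them, base 32608896, is shown because a HIF contact would be looked for there. It is printed to the end of the only match to the HIF core ACGTG in the 300-base window around that start, and the capitals mark that match.
Tfrc promoter, chr16:32608646-32608898: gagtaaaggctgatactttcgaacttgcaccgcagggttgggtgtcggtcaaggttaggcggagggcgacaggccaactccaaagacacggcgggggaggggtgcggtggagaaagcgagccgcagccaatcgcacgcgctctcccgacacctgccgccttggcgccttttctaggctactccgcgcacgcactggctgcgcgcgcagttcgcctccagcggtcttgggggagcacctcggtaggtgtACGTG
The match begins 2 bases before the first start and 228 bases before the second. Of 32851 promoter windows of this length, 19.6% held ACGTG or its reverse complement CACGT. No factor binding was measured, so the match describes these letters only.

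Values are log2 channel ratios, each with the median of all spots of its array subtracted, so 0 means the same ratio as the typical spot. The labels do not state which channel is on top, and male over female was assumed because the Y-linked gene Eif2s3y lay above 0 on 17 of 18 arrays. The exception was CIH 4 weeks replicate 1, where Eif2s3y stood at -0.03, so that array goes against its label in this respect. The male heart was always in Cy5, so a ratio away from 0 cannot be told apart from a dye effect, and a changed ratio does not say in which sex a level changed. In whole hearts, fewer cells of a type and less RNA per cell cannot be told apart. Between 12650 and 24512 spots per array had a value, and no label says whether 2 arrays of a group hold different animals, so p-values measure the spread between arrays. A ratio cannot show how abundant a transcript is. Of 13 cardiomyocyte markers only Pln and Atp2a2 could be tested, and the heart label was not checked further. The title of CIH 1 week replicate 1 gives 1 week of CIH while its source names give 2 weeks of CCH, and control 2 weeks replicate 1 carries the code 1A. Both were grouped by their titles.

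None of the 3 genes passed the test in any comparison between conditions. CCH minus control, as the mean over 1, 2 and 4 weeks, was 0.00 ± 0.19 for Tfrc, 0.52 ± 0.60 for Trf and 0.20 ± 0.35 for Hmox1 (log2, SE). CIH minus control was 0.25 ± 0.19 for Tfrc, 0.05 ± 0.60 for Trf and -0.01 ± 0.33 for Hmox1. In limma, with Benjamini-Hochberg adjustment over 10272 units (6945 named genes and 3327 unnamed spots), the adjusted p-values for CCH minus control were 0.999, 0.823 and 0.889 in the same order of genes. For CIH minus control they were 0.535, 0.972 and 0.986. The background for these counts of 0 of 3 was itself near 0: 0% of units were called in CCH minus control and 0.00974% in CIH minus control.

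At an unadjusted p of 0.05, limma gave 649 units in CCH minus control and 1307 in CIH minus control, with none of the 3 genes among them. The 95% intervals set the size of difference these arrays leave in range. For Tfrc the interval ran from -0.41 to 0.41 for CCH and from -0.16 to 0.66 for CIH. For Trf it was far wider, from -0.77 to 1.81 for CCH and from -1.24 to 1.34 for CIH. The fit takes 1 spread per gene from all 9 groups. The 2 Trf values of CCH 1 week, which lie 5.34 apart, therefore widen the CIH interval too. For Hmox1, measured on 15 arrays, it ran from -0.57 to 0.96 for CCH and from -0.73 to 0.71 for CIH.

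**Figure D1:**
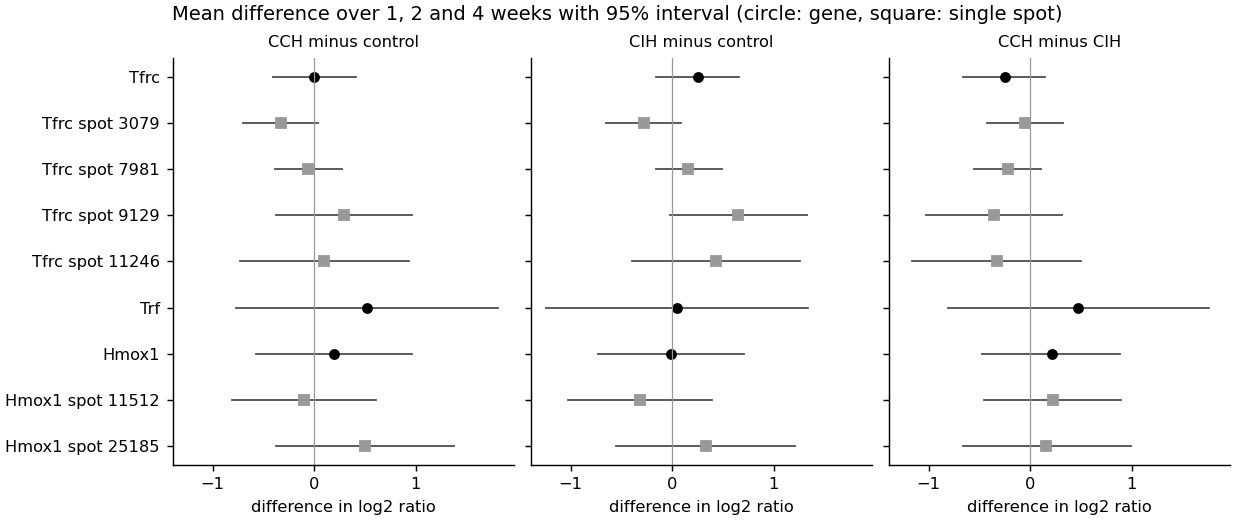
Difference in log2 channel ratio (horizontal axis) for each gene (circles) and each single spot (squares) for CCH against control, CIH against control and CCH against CIH, with 95% intervals from limma over 18 arrays (fewer where a spot had gaps). All intervals cover 0, and those of Trf are the widest of the 3 genes.

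CCH and CIH were also compared with each other. CCH minus CIH was -0.25 ± 0.19 for Tfrc, 0.47 ± 0.60 for Trf and 0.21 ± 0.31 for Hmox1 (log2, SE). The limma adjusted p-values were 0.757, 0.884 and 0.905, with 0.00974% of units called, so a difference between the 2 kinds of hypoxia was not detected for any of the 3.

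The spread between arrays of the same group separated the 3 genes more than the conditions did. The residual SD was 1.33 for Trf, 0.65 for Hmox1 and 0.37 for Tfrc, against a median of 0.28 over all units. Of all units, 99.9% varied less than Trf, 98.5% less than Hmox1 and 74.2% less than Tfrc. The Trf value rests largely on CCH 1 week, whose 2 arrays differed by 5.34, against 0.02 to 1.15 in every other group.

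**Figure D2:**
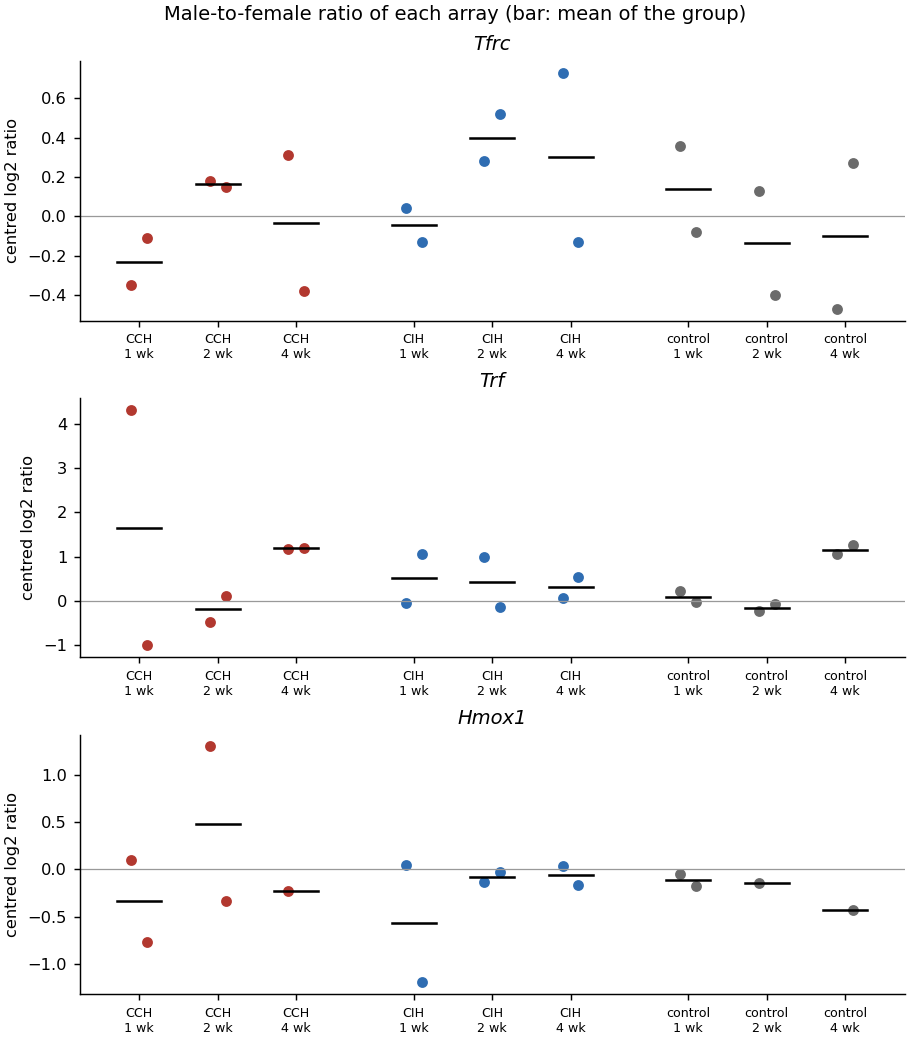
Centred log2 male-to-female ratio (vertical axis, a different scale in each panel) of Tfrc, Trf and Hmox1 on each array of the 9 groups, with a bar at the group mean. The 2 arrays of CCH 1 week lie at 4.33 and -1.01 for Trf, and Hmox1 has no value on 3 arrays.

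Trf, the iron carrier, had the widest range of the 3. In CCH hearts its ratio was 4.33 and -1.01 at 1 week, -0.49 and 0.11 at 2 weeks, and 1.18 and 1.20 at 4 weeks. In CIH hearts it was -0.04 and 1.07 at 1 week, 1.00 and -0.15 at 2 weeks, and 0.06 and 0.55 at 4 weeks. In control hearts it was 0.22 and -0.03 at 1 week, -0.24 and -0.07 at 2 weeks, and 1.05 and 1.27 at 4 weeks. The 2 arrays of CCH 1 week were the highest and the lowest of all 18, and the other 16 lay between -0.49 and 1.27.

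A log2 ratio of 4.33 is a 20.1-fold higher male than female signal, and -1.01 is 0.498-fold. On CCH 1 week replicate 1 only 1 of 9397 named genes had a higher ratio than Trf, the plasma protein gene Alb (albumin). On replicate 2 only 65 of 9654 named genes were lower. The 3 groups at 1 week had overlapping ranges, as had those at 2 weeks.

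Alb and Fgb, transcripts made mainly by liver, lay above their range elsewhere on one CCH 1 week array and below it on the other, as Trf did, while Ttr and Apoa1 lay above theirs on replicate 1 alone. Alb stood at 5.67 on replicate 1 and -2.65 on replicate 2 of CCH 1 week, against -0.54 to 1.43 on the 15 other arrays with a value. Ttr (transthyretin, another plasma carrier) stood at 2.31 and -0.68, and between -1.09 and 0.70 elsewhere. Apoa1, an apolipoprotein of plasma lipid transport, stood at 0.83 and -0.20, and between -1.05 and 0.39 elsewhere, so replicate 2 was not low for either gene. Fgb (fibrinogen beta chain) stood at 1.82 and -1.17, and between -0.30 and 0.17 on the 3 other arrays with a value.

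The list of 8 liver and plasma protein genes, of which those 4 had values, had a median of 2.06 on replicate 1 and -0.93 on replicate 2. Its array medians ranged from -0.93 to 2.06 in CCH, from -0.58 to 0.18 in CIH and from -0.40 to 0.70 in control hearts. Among the 6 highest genes of replicate 1 were also Serpina1e at 3.79 and Bhmt at 3.30, both of liver, Myl7 of the cardiac atria at 3.31 and Sftpc of lung at 3.08. Sftpc at -3.94, Alb at -2.65 and Serpina1e at -2.43 were among the 6 lowest genes of replicate 2 (these genes were chosen after their values were seen). The part of liver, lung or atrial tissue in the Trf ratio was not tested.

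**Figure D3:**
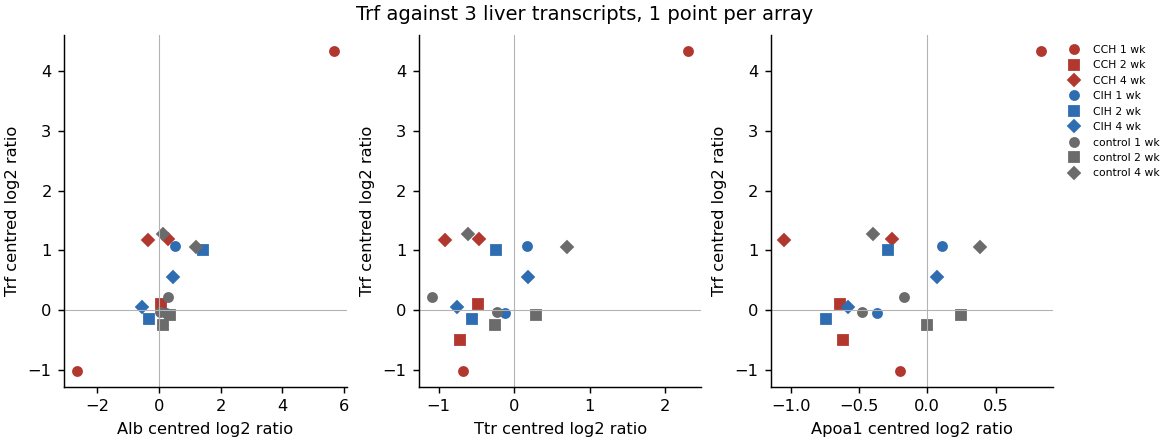
Centred log2 ratio of Trf (vertical axis) against Alb, Ttr and Apoa1 (horizontal axes), 1 point per array, coloured by condition and shaped by duration. CCH 1 week replicate 1 is the isolated point at the upper right of each panel, with Trf at 4.33 and Alb at 5.67, and replicate 2 has the lowest Trf value, -1.01.

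Across arrays the 3 genes with the ratio most like that of Trf, of 7033 compared, were Alb with r = 0.89 over 17 arrays, Fjx1 with r = 0.86 over 18 and Igfbp5 with r = 0.81 over 18. Without the 2 arrays of CCH 1 week, r was 0.41 for Alb, 0.38 for Fjx1 and 0.72 for Igfbp5. The arrays of a condition share their treatment, and these correlations are descriptions. On the 2 CCH 1 week arrays Fjx1, a secreted regulator of growth, stood at 2.23 and -1.68, and Igfbp5, a binding protein of insulin-like growth factors, at 0.79 and -0.50.

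Over all arrays the Trf ratio was 0.56 ± 0.25 (log2, SE), a 1.47-fold higher male signal, with 11 of 18 arrays above 0. In limma its unadjusted p was 0.0394 and its adjusted p 0.103, so it did not pass, while 27.7% of units were called in that comparison. Without CCH 1 week replicate 2 the ratio was 0.85, and without replicate 1 it was 0.26. Each of these fits leaves 1 array in that group. The disagreement of the 2 arrays then drops out of the estimated spread, so no p-value is given for them. The size of the Trf ratio therefore turned on 1 array. CCH minus control for Trf was likewise -0.37 without replicate 1 and 1.41 without replicate 2, and CCH minus CIH was -0.42 and 1.36.

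At 4 weeks the Trf ratio was 1.18 and 1.20 in CCH hearts, against 1.05 and 1.27 in control hearts, so all 4 arrays lay above 1. In CIH hearts of 4 weeks both values, 0.06 and 0.55, lay below both controls. How often units separate in this way was not counted. CIH minus control at 4 weeks was -0.85 ± 1.05 (log2, SE), with a limma adjusted p of 0.916. Control hearts of 4 weeks minus those of 1 week gave 1.06 ± 1.05, with a limma adjusted p of 0.936 and 0% of units called. Both SEs come from the spread in all 9 groups, which for Trf is mostly that of CCH 1 week, with arrays 5.34 apart. The 2 control arrays differed by 0.26 at 1 week and by 0.23 at 4 weeks. These p-values therefore do not measure the spread of the control or CIH hearts alone. On control 4 weeks replicate 2 only 15 of 8080 named genes were higher than Trf, and on CCH 4 weeks replicate 2 only 62 of 6983.

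Tfrc, the receptor, ranged from -0.47 to 0.73 as a gene mean, the smallest spread of the 3 genes but above that of most units. In CCH hearts its ratio was -0.35 and -0.11 at 1 week, 0.18 and 0.15 at 2 weeks, and 0.31 and -0.38 at 4 weeks. In CIH hearts it was 0.04 and -0.13 at 1 week, 0.28 and 0.52 at 2 weeks, and 0.73 and -0.13 at 4 weeks. In control hearts it was 0.36 and -0.08 at 1 week, 0.13 and -0.40 at 2 weeks, and -0.47 and 0.27 at 4 weeks.

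The condition means of Tfrc were -0.03 ± 0.29 in CCH, 0.22 ± 0.36 in CIH and -0.03 ± 0.35 in control hearts (SD, n = 6 each). All 4 hypoxic arrays of 2 weeks lay above both controls of that duration, at the closest 0.15 against 0.13. At 1 week both CCH arrays lay below both controls, and at 4 weeks the ranges overlapped. Spot 3079 went the other way at 2 weeks, with group means of -0.25 in CCH, -0.21 in CIH and 0.08 in control hearts. Spot 9129 gave 0.43, 0.91 and -0.20 in that order, and spot 11246 gave 0.41, 1.42 (1 array) and -0.46. At spot 7981 the CCH values (0.02 and 0.12) and CIH values (0.05 and 0.07) lay between the 2 controls, 0.28 and -0.18. The share of all units with ranges apart was not counted, so these separations are descriptions. The highest Tfrc value, 0.73, came from CIH 4 weeks replicate 1, the array on which Eif2s3y was not raised. Without that array CIH minus control for Tfrc was 0.11, a fit that leaves 1 CIH array at 4 weeks. Over all arrays the Tfrc ratio was 0.05 ± 0.08, with a limma adjusted p of 0.647 and 10 of 18 arrays above 0.

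The gene mean of Tfrc joined 4 spots that did not move together. Spots are numbered as on the array, and the files used here do not say which part of the transcript each clone covers. Spots 9129 and 11246 followed each other across 15 arrays, with Pearson r = 0.95 and Spearman rho = 0.98 (permutation p adjusted over 7 pairs of spots, 7e-05 for each, the smallest that 100000 permutations and this adjustment could give). Without the 2 arrays farthest from the median of spot 9129, r was 0.94.

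Spot 3079 ran the other way. Its r was -0.73 with spot 9129 (18 arrays, adjusted permutation p 0.00184, rho -0.58) and -0.71 with spot 11246 (15 arrays, 0.00527, rho -0.79). Without the 2 farthest arrays these were -0.46 and -0.68. With spot 7981 it showed no clear relation, at r = -0.28 and rho = -0.14 (adjusted permutation p 0.266). Spot 7981 went with spot 9129 at r = 0.73, which was 0.45 without 2 arrays, and with spot 11246 at r = 0.53 and 0.27. The permutations shuffled arrays across groups, although arrays of a group share condition and duration. The permutation p-values thus treat the arrays as independent.

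**Figure D4:**
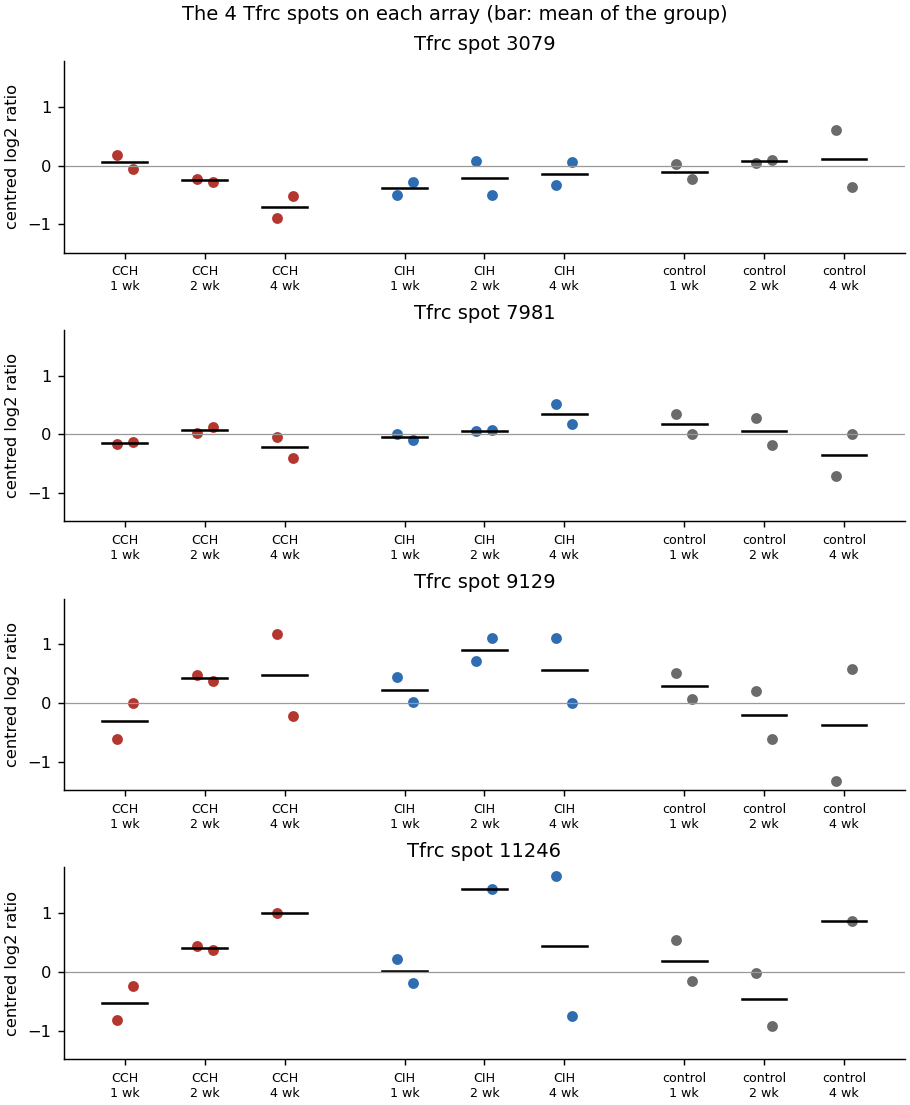
Centred log2 male-to-female ratio (vertical axis, the same scale in each panel) of the 4 Tfrc spots on each array of the 9 groups, with a bar at the group mean. Spot 9129 is at or above 0.01 on all 6 CIH arrays, and spot 3079 is lowest, at -0.89, on the CCH array where spot 9129 is highest, at 1.18.

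Single arrays show the opposite course of the spots. On CCH 4 weeks replicate 1 spot 3079 stood at -0.89, spot 7981 at -0.04, spot 9129 at 1.18 and spot 11246 at 1.01. On control 4 weeks replicate 1 spot 3079 stood at 0.61, spot 7981 at -0.71 and spot 9129 at -1.33, with no value for spot 11246. The gene means of these 2 arrays, 0.31 and -0.47, are averages over values of both signs, and a missing spot changes which are averaged. Spot 11246 had no value on 3 arrays, 1 in each condition.

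Spot 9129 lay above 0 on all 6 CIH arrays, from 0.01 to 1.11 with a median of 0.57. In CCH hearts it ran from -0.60 to 1.18 with a median of 0.19, and in control hearts from -1.33 to 0.59 with a median of 0.14. CIH minus control was 0.65 ± 0.32 for this spot, with a limma unadjusted p of 0.0548 and an adjusted p of 0.415 over 14024 single spots. For spot 3079 the same difference was -0.28 ± 0.17, for spot 7981 it was 0.16 ± 0.15 and for spot 11246 it was 0.43 ± 0.39.

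In CCH minus control the spots gave -0.33 for 3079, -0.06 for 7981, 0.29 for 9129 and 0.10 for 11246. None of the 7 spots of the 3 genes passed the limma test in these comparisons, where 1.42% of single spots were called in CIH minus control, 0% in CCH minus control and 0% in CCH minus CIH. In the ratio over all arrays, where 28.9% of single spots were called, none of the 7 passed either. Spot 3079 had the smallest limma adjusted p there, 0.083, at -0.17 ± 0.07, and spot 11246 had 0.0903 at 0.37 ± 0.16.

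The 3 genes with the ratio most like the Tfrc mean were Sap30 with r = 0.95 over 16 arrays, AW112037 with r = 0.90 over 18 and Dnajc21 with r = 0.89 over 18. Sap30 encodes a subunit of a histone deacetylase complex and Dnajc21 a co-chaperone of ribosome assembly. Without the 2 CCH 1 week arrays these values were 0.94, 0.91 and 0.89. The Tfrc mean had a negative r with the liver genes, -0.65 with Ttr and -0.71 with Apoa1 over 18 arrays and -0.35 with Alb over 17, which was -0.76, -0.69 and -0.53 without the CCH 1 week arrays. For Trf, r with Ttr was 0.73 and with Apoa1 0.52, and without those arrays 0.14 for both.

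Hmox1, the heme-degrading enzyme, had a value on 15 arrays. In CCH hearts its ratio was 0.10 and -0.77 at 1 week, 1.30 and -0.33 at 2 weeks, and -0.23 on the only array of 4 weeks with a value. In CIH hearts it was 0.05 and -1.19 at 1 week, -0.13 and -0.03 at 2 weeks, and 0.04 and -0.16 at 4 weeks. In control hearts it was -0.05 and -0.17 at 1 week, -0.14 on 1 array of 2 weeks and -0.43 on 1 array of 4 weeks.

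The condition means of Hmox1 were 0.01 ± 0.78 in CCH (SD, n = 5), -0.24 ± 0.48 in CIH (n = 6) and -0.20 ± 0.16 in control hearts (n = 4). All 4 control values were below 0, and both hypoxic conditions had values above and below the control range. Over all arrays the ratio was -0.16 ± 0.14 (log2, SE), with a limma adjusted p of 0.381 and 11 of 15 arrays below 0.

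A few single arrays set the range of Hmox1. On CCH 2 weeks replicate 1 it stood at 1.30, a 2.45-fold higher male signal, and only the Y-linked gene Eif2s3y, at 2.28, was higher among 8244 named genes. The spots there read 0.59 (spot 11512) and 2.00 (spot 25185). On CIH 1 week replicate 2 it stood at -1.19, a 0.437-fold male signal, with both spots low at -1.26 and -1.12. Only 32 of 8760 named genes were lower on that array.

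On CCH 2 weeks replicate 1 Slc4a1, the anion exchanger of the red cell membrane, stood at -2.01 and Alas2, the erythroid enzyme that starts heme synthesis, at -2.04. CIH 2 weeks replicate 2 had Slc4a1 at -2.44, Alas2 at -2.82 and Hmox1 at -0.03. On CIH 4 weeks replicate 1 the same genes stood at -1.91, -1.68 and 0.04. Over 15 arrays r between Hmox1 and these genes was -0.43 for Slc4a1 and -0.50 for Alas2, as descriptions. Their part in the Hmox1 ratio was not tested. On CIH 1 week replicate 2, where Hmox1 was low, Slc4a1 stood at -0.11 and Alas2 at -0.14, and the highest named gene was the stress-induced factor Atf3 at 2.63 (chosen after its value was seen).

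The 2 Hmox1 spots agreed less than the closest Tfrc pair. Their r was 0.50 over 13 arrays, with an adjusted permutation p of 0.108, and rho was 0.19. Without the 2 farthest arrays r was 0.61. On CCH 2 weeks replicate 2 spot 11512 stood at -0.86 and spot 25185 at 0.19, and on CCH 1 week replicate 2 they stood at -0.19 and -1.36.

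CIH minus control was -0.32 ± 0.33 for spot 11512 and 0.33 ± 0.40 for spot 25185, opposite in sign and both short of the limma test, with adjusted p-values of 0.634 and 0.688. The means of CIH 2 weeks replicate 2 and CIH 4 weeks replicate 2 rest on 1 spot each. The 3 genes with the ratio most like Hmox1, of 5978 compared over 15 arrays, were the membrane transporter Abcc1 with r = 0.80, the microtubule protein Map4 with r = 0.72 and the kinase Camk2g with r = 0.68.

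The effect of hypoxia was next followed by duration. In CCH minus control, Tfrc gave -0.37 ± 0.33 at 1 week, 0.30 ± 0.33 at 2 weeks and 0.07 ± 0.33 at 4 weeks (log2, SE). In CIH minus control it gave -0.19, 0.54 and 0.40 with the same error. For both kinds of hypoxia the value was below 0 at 1 week and above 0 at 2 weeks, from controls that the 2 differences share.

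Trf gave 1.57 ± 1.05, -0.03 ± 1.05 and 0.03 ± 1.05 for CCH minus control at 1, 2 and 4 weeks, and 0.42, 0.58 and -0.85 for CIH minus control. Hmox1 gave -0.23 ± 0.50, 0.62 ± 0.61 and 0.20 ± 0.70 for CCH, and -0.46 ± 0.50, 0.05 ± 0.61 and 0.37 ± 0.61 for CIH. With 2 arrays a group or fewer, none of these passed. In limma, 0% of units were called for CCH at 1 and 4 weeks and for CIH at 1 and 4 weeks, 0.0195% for CCH at 2 weeks and 0.00974% for CIH at 2 weeks.

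Whether the effect of hypoxia differed between durations was asked with an F test, which gave limma adjusted p-values of 0.701 for Tfrc, 0.744 for Trf and 0.811 for Hmox1, with 0% of units called. The CCH minus control value of Trf at 1 week turned on 1 array: without CCH 1 week replicate 2 it was 4.24, and without replicate 1 it was -1.10. Each of these 2 values rests on a single CCH array.

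Other genes of iron and heme handling give the setting of the 3. Of 62 listed genes, 46 had a spot and 40 could be tested, Tfrc, Trf and Hmox1 included. None of the 40 passed when CCH or CIH was set against control or CCH against CIH, where 0%, 0.00974% and 0.00974% of all units were called. Their median difference was 0.00, -0.01 and 0.01 in those comparisons, against -0.04, -0.01 and -0.03 over all units.

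**Figure D5:**
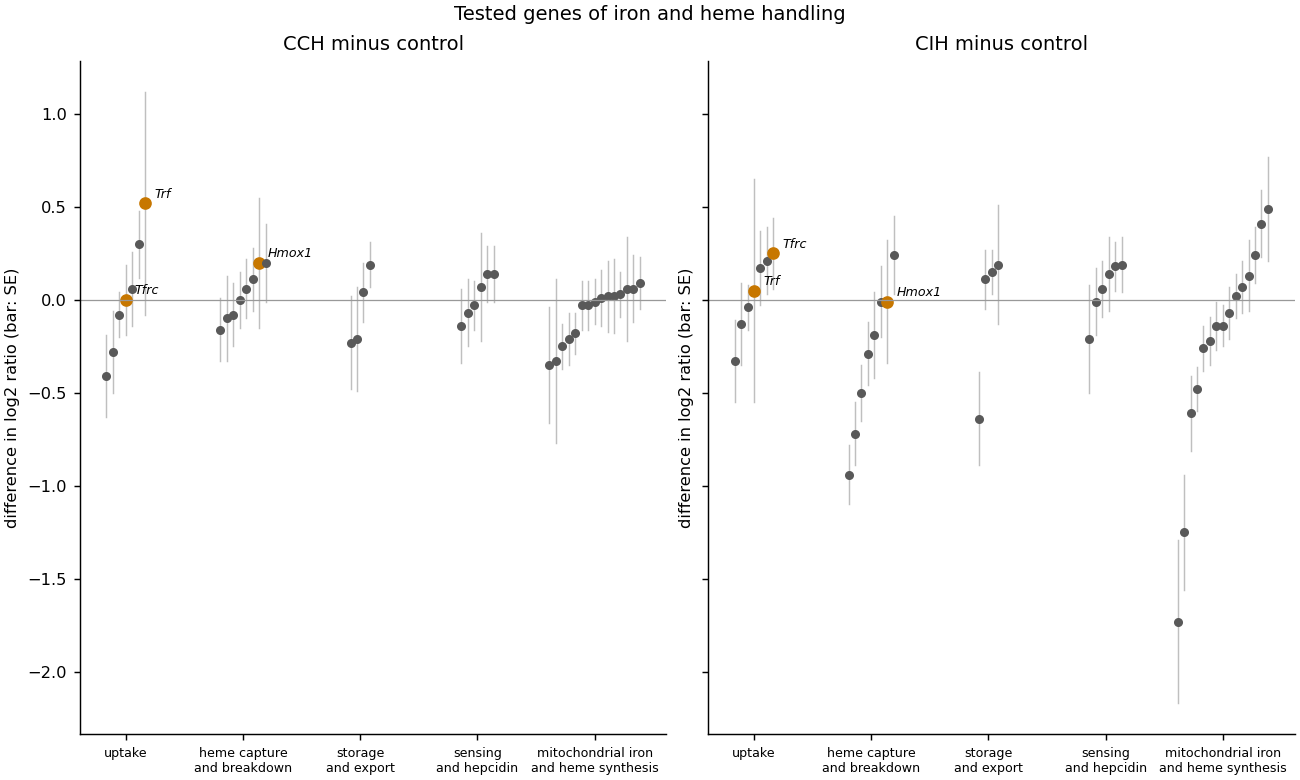
Difference in log2 channel ratio (vertical axis, with SE) of each of the 40 tested genes of iron and heme handling, grouped by role, in CCH minus control and CIH minus control, with Tfrc, Trf and Hmox1 in orange. In CIH minus control Alas2 is lowest at -1.73 and Fech follows at -1.25, and none of the points passed the test.

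The 40 genes fall into 5 roles. In CIH minus control, 7 of the 8 tested genes of heme capture and breakdown were negative, with a median of -0.24, where 50.9% of all units were negative. Of the 15 genes of mitochondrial iron, iron-sulfur clusters and heme synthesis 9 were negative, with a median of -0.14. The medians of the other roles were 0.13 for iron storage and export, 0.10 for iron sensing and 0.05 for uptake of transferrin-bound iron, and these differences between roles were not tested. The 3 genes with the smallest p-values act in the synthesis, export or breakdown of heme. Blvrb, which encodes biliverdin reductase B, was at -0.94 ± 0.16 with a limma adjusted p of 0.0521. Flvcr1, a heme exporter, was at -0.72 ± 0.17 with a limma adjusted p of 0.0536. Fech, which inserts iron into protoporphyrin to make heme, was at -1.25 ± 0.31 with 0.0634, so none of the 3 passed. These 3 lie next to the threshold: of 12 other processing settings (1 of them chosen after seeing the data), limma called Blvrb in 6 (adjusted p 0.0215 to 0.404), Flvcr1 in 6 (0.0349 to 0.469) and Fech in 4 (0.0225 to 0.428), always below 0. With the values as deposited, without centring, 4 of 40 genes were called (Blvrb, Fech, Flvcr1 and Glrx5), where 1.87% of all units were.

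Blvrb lay at -0.78 and -0.08 at 1 week, -0.87 and -0.88 at 2 weeks, and -0.74 and -0.51 at 4 weeks in CIH hearts. In control hearts it lay at 0.57 and -0.15, -0.10 and -0.16, and 0.78 and 0.83 at the same durations. All 6 CIH values were below 0, and 1 of them, -0.08, lay within the control range. The smallest p-values in CCH minus control belonged to Glrx5 (-0.25), Ltf (-0.41) and Urod (-0.18), all with a limma adjusted p of 0.749. In CCH minus CIH they belonged to Blvrb (0.99, 0.0681), Slc48a1 (0.50, 0.185) and Flvcr1 (0.56, 0.19).

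Of 11 tested red cell genes, none was called in CIH minus control, where 0.00974% of units were. Their values were 4 positive and 7 negative with a median of -0.84, against -0.01 over all units. Their array medians ran from -1.41 to 0.93 in CCH, from -1.47 to 0.10 in CIH and from -0.28 to 0.64 in control hearts. Blood content of the hearts and its part in the heme genes was not tested. For Tfrc, r was -0.49 with Slc4a1 and -0.39 with Alas2 over 18 arrays, and for Trf it was 0.48 and 0.21, as descriptions.

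The ratio itself was then read against 0 for the iron and heme list. Over all arrays 1 of 40 genes was called above 0 and 10 below, where 8.99% of all units were called above and 18.7% below. In both directions together the list was called at about the rate of all units, 27.7%, so the counts are no result about the list. The gene above was Lrp1, a receptor that also takes up hemopexin-bound heme, at 0.33 ± 0.07. Glrx5, of iron-sulfur cluster assembly, was at -0.44 ± 0.05 with a limma adjusted p of 9.5e-05, and Urod, of heme synthesis, at -0.28 ± 0.05 with 0.00087. The others below were Hscb, Slc25a28, B2m, Slc39a14, Fech, Pcbp2, Slc48a1 and Steap3, between -0.39 and -0.14. Steap3, the reductase that acts on iron released from transferrin in endosomes, was at -0.25 ± 0.09. Without CIH 1 week replicate 1 the count below was 5 in place of 10, and 5 to 11 over all single arrays left out. The count above was 4 without control 4 weeks replicate 1, 3 without CIH 4 weeks replicate 2 and 1 or 2 without any other array.

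In CIH hearts alone 9 of 40 were called below 0, where 8.37% of all units were (12.1% in both directions). They were Glrx5 (-0.67), Blvrb (-0.64), Fech (-1.11), Slc48a1 (-0.51), Alas2 (-1.43), Urod (-0.32), Hscb (-0.37), Flvcr1 (-0.39) and Slc25a37 (-0.45). Of the 11 red cell genes, 6 were called below 0 in the same comparison. The count of 9 was 2 without CIH 1 week replicate 1, the array with conflicting labels, 2 without CIH 2 weeks replicate 2 and 3 without CIH 4 weeks replicate 1, where 1.42%, 1.98% and 2.05% of units were called. In CCH hearts Lrp1 was called above 0 at 0.50, where 2.89% of units were. Glrx5 (-0.45), Urod (-0.36) and Slc25a28 (-0.35) were called below 0, where 7.89% of units were (10.8% in both directions). The counts of 1 above and 3 below in 40 lie near these shares, so they are no result about the list. These CCH counts were 0 to 2 above and 1 to 5 below when single arrays were left out.

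In control hearts none of the 40 was called, with 0.00974% of units called. In the fit to all 18 arrays Tfrc, Trf and Hmox1 were not called in any of the 3 conditions. Their ratios were -0.03, 0.89 and -0.03 in CCH, 0.22, 0.41 and -0.24 in CIH and -0.03, 0.37 and -0.23 in control hearts. The Trf ratio in CCH was 1.78 without CCH 1 week replicate 2 and 0 without replicate 1, so it too turned on 1 array.

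Lists of the regulators' other targets were set beside the 3 genes. Of 12 tested HIF targets none was called in CCH minus control or CIH minus control, with medians of 0.08 and 0.11. Over all units 0% and 0.00974% were called in these comparisons and the medians were -0.04 and -0.01, so the counts of 0 are no result about the targets. By duration (1, 2 and 4 weeks) the HIF target median was -0.23, 0.37 and 0.07 in CCH and 0, 0.36 and 0.12 in CIH. Over all units it was 0.02, -0.05 and -0.06 in CCH and 0, -0.03 and -0.02 in CIH. At 2 weeks 11 of the 12 targets were positive in CCH and 8 in CIH, and at 1 week 3 and 6. Both differences share their controls, and this course was not tested. Of 5 tested NRF2 and BACH1 targets none was called either, with medians of -0.02 and 0.08. Macrophages take up red cells and express Hmox1. All 8 tested macrophage markers had a negative ratio over all arrays, as had 59.3% of all units, and 6 were called below 0, where 18.7% of all units were. Their median was -0.32, against -0.04 over all units. Their array medians ran from -0.89 to -0.02 in CCH, from -0.53 to -0.19 in CIH and from -0.50 to 0.06 in control hearts. The part of macrophages in the Hmox1 ratio was not tested.

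The 2 arrays with conflicting labels changed no call for the 3 genes. Without CIH 1 week replicate 1, CIH minus control was 0.22 for Tfrc, 0.23 for Trf and -0.22 for Hmox1. Without control 2 weeks replicate 1, it was 0.34 for Tfrc and 0.02 for Trf, and Hmox1 had no control left at 2 weeks.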

How the data were processed

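The authors deposited 1 log2 ratio of the 2 channels per spot and array. Scale and centring were read from the values: the linear ratios average 1 on every array. Background correction and normalization are not given in the sources used here. From each array the median of all spots was subtracted. Spots were named through the platform annotation. A unit was a gene symbol (mean over its spots) or a spot without exactly 1 symbol, tested if no group lacked it on both arrays. The 9 group means were estimated from all 18 arrays by limma (version 3.58.1, R version 4.3.3; lmFit, contrasts.fit, eBayes; two-sided, Benjamini-Hochberg, threshold 0.05), after tests on simulated data. The number of arrays limits the precision. Correlations between spots used 100000 permutations of the arrays without regard to their groups (scipy 1.17.1).

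The members and the gene lists were chosen with earlier results of these data known. Named were the 3 genes, list members past the threshold or else the 3 with the smallest p, and the 3 genes most like each. The arrays were not paired by the letters A and B in 16 titles, whose meaning the labels used here do not give. Alternatives changed the centring, scaling, normalization, averaging of spots, filter, prior, model and arrays.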

Additional observations from a re-analysis of the deposited data

Results flagged for a closer look

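One array stood apart for Hmox1. Among the 6 CIH arrays, CIH 1 week replicate 2 was lowest at -1.19, with a gap to the next array, at -0.16, that was large against the whole range. The same array stood apart at each spot, at -1.26 for spot 11512 and -1.12 for spot 25185. The 3 values come from 1 array and 1 gene. Chance alone marks about 1 in 20 such sets, and 27 sets were examined, of which 3 were marked.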

How the results depend on the processing

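None of the 3 genes passed the limma test in a comparison between conditions averaged over durations under any of the settings tried, and only values near 0 changed sign among the changes of scaling and averaging. Hmox1 CIH minus control was 0.06 after scaling of the arrays to equal spread and 0.02 after quantile normalization, which also gave the Tfrc ratio over all arrays as -0.01. The median over spots gave Tfrc CCH minus control as 0.07 and its ratio in CCH as 0.01. At single durations the sign turned for Trf CCH minus control at 4 weeks (-0.03 without centring, -0.35 scaled, -0.24 quantile) and at 2 weeks (0.15 scaled, 0.14 quantile, 0.02 with CIH 1 week replicate 1 grouped as CCH 2 weeks). It turned for Hmox1 CIH minus control at 2 weeks without centring (-0.06), and with scaled arrays for Tfrc CCH minus control at 4 weeks (-0.05) and in control (0.02).

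The letters A and B of the titles were tried as a replicate block over the 16 lettered arrays, which leaves out CCH 1 week replicate 1 and CCH 2 weeks replicate 1. Over 21 pairs of groups the letter differences correlated between -0.54 and 0.45, 9 of them over 0.1. The block gave CCH minus control as 0.12 for Tfrc, -0.30 for Trf and -0.16 for Hmox1, and CCH minus CIH as -0.35 for Trf and -0.15 for Hmox1. The same 16 arrays without the block, a setting added after seeing the data, gave 0.03, -0.27 and -0.22, and -0.32 and -0.21, so these signs turned with the arrays left out. They also gave Trf CCH minus control as -1.10 at 1 week and 0.27 at 2 weeks, Hmox1 as -0.20 at 2 weeks and the Tfrc ratio in CCH as 0.

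The number of units called in CIH minus control, 1 as reported, was 192 without centring, 0 with scaled arrays, 109 for units on all arrays, 115 with the median over spots, 190 with complete spots only, 0 with duration as an additive term, 213 with the block and 211 without it. In CCH minus CIH, also 1, it was 0 with scaled arrays, complete spots, the additive term or the block, and 100 for the 16 arrays without it. For the ratio over all arrays the block gave 1807 units in place of 2845. The cause was not tested.

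Leaving out each array in turn (15 possible arrays for Hmox1, 18 otherwise) gave CCH minus control of -0.13 to 0.12 for Tfrc, -0.37 to 1.41 for Trf and -0.07 to 0.47 for Hmox1. CIH minus control was 0.11 (without CIH 4 weeks replicate 1) to 0.39 (without replicate 2) for Tfrc, -0.14 to 0.24 for Trf and -0.22 to 0.20 for Hmox1, and CCH minus CIH -0.40 to -0.11 for Tfrc (without the same arrays, in reverse), -0.42 to 1.36 for Trf and -0.06 to 0.48 for Hmox1. The Trf ratio over all arrays was 0.26 to 0.85, and in CCH 0 to 1.78, the highest without CCH 1 week replicate 2. The units called were 0 to 1 in CCH minus control, 1 to 305 in CIH minus control and 0 to 196 in CCH minus CIH. At single durations, CCH minus control was -0.66 to 0.21 (1 week) and -0.20 to 1.43 (2 weeks) for Hmox1, -0.59 to -0.15, 0.03 to 0.57 and -0.30 to 0.44 for Tfrc (1, 2 and 4 weeks), and -1.10 to 4.24, -0.34 to 0.27 and -0.08 to 0.14 for Trf (1, 2 and 4 weeks). CIH minus control was -1.09 to 0.16 for Hmox1, -0.40 to 0.03 for Tfrc and -0.14 to 0.98 for Trf at 1 week, 0.27 to 0.80 for Tfrc and 0 to 1.15 for Trf at 2 weeks, and -0.03 to 0.83 for Tfrc at 4 weeks. Tfrc control 4 weeks minus 1 week was -0.62 to 0.13, its ratio in CCH -0.15 to 0.08 and in control -0.16 to 0.09, and the Hmox1 ratio in CCH -0.30 to 0.24. With 2 arrays a group, changes smaller than the intervals given could not be told from 0.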
